A study of Mus musculus with 2 samples.

Results

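The genes of the unfolded protein response and of the chaperones of the endoplasmic reticulum (ER) were followed in the mouse corneal epithelium, in control and in diabetic animals. They are a fixed list of 32 symbols, all of which were found among the 17492 genes of the deposited count matrix. By role the list holds 3 stress sensors, 1 transcription factor, 15 chaperones and folding enzymes, 4 genes of ER-associated degradation, 2 genes of protein entry into the ER, and 7 genes of the Atf4 branch. Single-cell RNA sequencing had been made of 2 libraries, 1 per group. Each was a pool of 4 corneas from 2 male C57BL/6J mice aged 20 weeks. The mice of the Diabetic library had been injected once with streptozotocin, a toxin of pancreatic beta cells, at 160 mg/kg, and had stayed above 250 mg/dL of blood glucose through 12 weeks. Those of the Control library had been given citrate buffer, and the labels name no engineered allele in either group. The epithelium was lifted off with an enzyme and taken apart with trypsin before cells were captured, so every value is of cells after that handling.

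Proteins that enter the ER are folded there with the help of chaperones, and those that fail are sent back to the cytosol and degraded. When unfolded protein builds up, the sensors Ern1 (IRE1), Atf6 and Eif2ak3 (PERK) signal to the nucleus. Ern1 splices the mRNA of Xbp1, and spliced Xbp1 together with cleaved Atf6 raises transcription of chaperone and degradation genes. Eif2ak3 slows translation while favouring that of Atf4, whose targets handle amino acid supply, redox balance and cell death. Atf4 is also reached by kinases that sense amino acid shortage and other stress, so its targets need not move with the chaperones. A 3′ count reads neither Xbp1 splicing, nor Atf6 cleavage, nor Atf4 translation.

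The 2 arms of the list differ in their promoter letters, which is why 6 promoter stretches are shown. Promoters came from RefSeq (build GRCm38.p6, 250 bases before to 50 bases after each transcription start) and matched 29 of the 32 genes. The ER stress response element (ERSE) was searched as CCAAT, 9 bases of any kind, then CCACG. ERSE-II was ATTGG, 1 base, then CCACG. The third element, UPRE, was TGACGTGG, and the Atf4 element was TGATGNAA. Both strands were searched, and ERSE and ERSE-II share the block CCACG. In the lines that follow, the match stands in capitals, except that the 9 free bases inside an ERSE are in lower case, and a match on the other strand appears as its reverse complement. The stretches are Hspa5 (chr2:34772005-34772063, plus strand), Hsp90b1 (chr10:86705513-86705676, minus strand), Pdia6 (chr12:17266471-17266529, plus strand), Herpud1 (chr8:94386297-94386407, plus strand), Asns (chr6:7693210-7693252, minus strand) and Chac1 (chr2:119351029-119351076, plus strand), each read 5′ to 3′ along its gene.
Hspa5: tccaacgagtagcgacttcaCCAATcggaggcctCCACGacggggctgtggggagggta
Hsp90b1: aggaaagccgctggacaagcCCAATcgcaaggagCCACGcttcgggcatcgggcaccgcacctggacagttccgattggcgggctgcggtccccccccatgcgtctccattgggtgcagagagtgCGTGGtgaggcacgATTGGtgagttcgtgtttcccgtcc
Pdia6: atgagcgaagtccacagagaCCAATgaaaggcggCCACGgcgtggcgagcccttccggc
Herpud1: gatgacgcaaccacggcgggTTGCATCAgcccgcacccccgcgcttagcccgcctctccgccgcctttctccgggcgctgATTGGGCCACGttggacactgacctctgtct
Asns: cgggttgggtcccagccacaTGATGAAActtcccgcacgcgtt
Chac1: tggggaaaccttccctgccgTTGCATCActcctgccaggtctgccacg

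An exact ERSE was found in 7 of the 13 chaperone promoters matched (Hspa5, Hsp90b1, Dnajc3, Creld2, Calr, Canx and Pdia6), in Syvn1, and in 0 of the 7 Atf4 branch promoters. Over all genes of the promoter table it was found in 37 of 27025, or 0.137%. ERSE-II was found in Herpud1 and, after the start, in Dnajb11, against 12 genes of the table (0.0444%). The Atf4 element was found in Asns, Chac1, Trib3 and Herpud1 and in 0 of 13 chaperones, against 4.51% of all genes. The UPRE letters were in 0 of 29 promoters and in 0.714% of all genes. Hsp90b1 held an ERSE on each strand, and Herpud1 held one ERSE-II and one Atf4 element. A match describes the letters in this window and is neither a binding site nor a cause of a level, and a promoter without a match may use other letters.

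The control library held 9605 cells with a median of 16487 UMIs (unique molecular identifiers, 1 per captured molecule), and the diabetic library 8203 cells with a median of 17677. For each gene the UMIs of a library, or of 1 label in it, were added up and divided by all UMIs of those cells to give CPM (UMIs scaled to a common total). With 1 library per group no test between groups is possible, and intervals (95%, exact) cover counting error only. A gene counted as measured with 50 or more UMIs over both libraries. A measured gene was called higher when its CPM stood at least 25% above the control and lower when at least 20% below, with CPM intervals that did not overlap (the size rule). The authors had sorted the cells into 8 labels, whose abbreviations are not spelled out in the sources used here: Basal, Wing and Squam, then LSC, Conj, TAC1 and TAC2, and Immune, whose 26 and 10 cells were too few to compare. Corneal epithelial markers (Krt12, Pax6, Aldh3a1 and Krt5) summed to 40511 CPM in the control and 40599 CPM in the diabetic library. Immune markers summed to 14.0 and 7.49 CPM, and 3 goblet cell markers to 7.31 and 8.21 CPM. The goblet sum was mostly Agr2 (1359 and 1393 counts), while Spdef had 72 and 6 counts and Tff1 5 and 5. Between the libraries 4 limbal markers went from 260 to 462 CPM and 6 cycling markers from 207 to 292 CPM, and 2 stromal markers were at 0.453 and 1.52 CPM. LSC made up 2.10% and 4.04% of cells and Wing 30.2% and 24.1%. The part of this makeup in the all-cell values was addressed only by giving both libraries the same label weights, under which the median log2 ratio of the 32 genes was -0.033. The libraries shared 18 cell barcodes, and RNA free in the suspension was not removed. In sums over all cells, a change in the number of cells of a type and a change in the level per cell cannot be told apart.

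Over all cells, the chaperone mRNAs as a group were a little below their control level and the Atf4 branch was too, while only 1 of the 32 genes passed the size rule: Asns was lower in the diabetic library. All 32 genes had 50 or more counts. The median log2 ratio, diabetic over control, was -0.08 over the 32 genes, -0.11 over the 15 chaperones and -0.09 over the 7 Atf4 branch genes, beside 0.07 over all 13846 genes measured. A ratio below 1 was found for 20 of the 32 genes, and for 38.6% of all genes. By the size rule 1 member was lower and 0 were higher, where 6.45% of all genes were lower and 13.3% higher. At 1.5-fold the counts were 0 and 0, beside 2.8% of genes lower and 5.98% higher. The split of all genes, 1836 higher and 893 lower, became 1366 and 1216 under median-of-ratios scaling, and 24 of the 32 genes were then below 1.

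**Figure D1:**
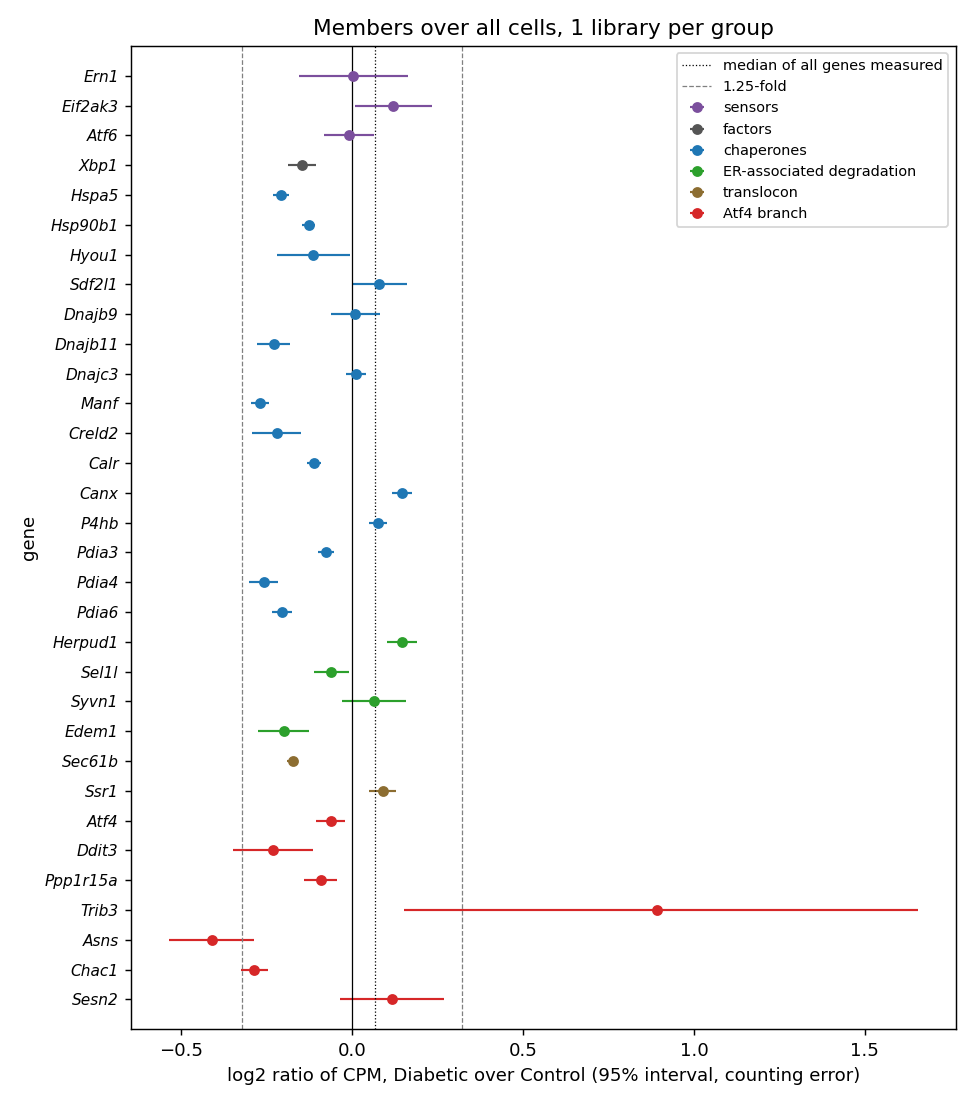
The log2 ratio of CPM over all cells (x axis, diabetic over control, bars are 95% intervals for counting error) is plotted for each of the 32 genes (y axis), coloured by role. Most chaperones lie between 0 and the dashed size line on the left, Canx and P4hb lie right of 0, Asns lies past the left line, and Trib3 lies far right with a wide interval from 26 and 42 counts.

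Over all cells the sensors were near their control level and Xbp1 was a little below it. Ern1 was at 3.49 CPM in the control and 3.50 CPM in the diabetic library, with an interval of the ratio from 0.897 to 1.12. Eif2ak3 was at 6.62 and 7.19 CPM, a ratio of 1.09 (1.005 to 1.18), and Atf6 at 17.0 and 16.9 CPM. The direction of Ern1 turned under 4 of 8 alternative settings and that of Atf6 under 3. Xbp1, the transcription factor spliced by Ern1, was at 55.4 and 50.04 CPM, a ratio of 0.903 (0.878 to 0.929). Xbp1 stayed below 1 over all cells in all 8 alternatives. By label it was below 1 in 3 of 7, at 74.0 and 67.2 CPM in Wing and at 59.6 and 60.7 CPM in Squam.

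Among the 15 chaperones and folding enzymes, 10 were below 1 and 5 above 1 over all cells, and 0 passed the size rule in either direction. Manf, a secreted ER factor that protects stressed cells, was at 139 CPM in the control and 115 CPM in the diabetic library, a ratio of 0.830 (0.815 to 0.845). Pdia4, a disulfide isomerase, was at 56.0 and 46.8 CPM, a ratio of 0.836 (0.812 to 0.860). These were the members of the group farthest from 1, and both were below 1 in all 7 epithelial labels. Dnajb11, a co-chaperone of Hspa5, was at 41.8 and 35.6 CPM (ratio 0.853), and Hspa5 (BiP), the main Hsp70 chaperone of the ER, at 164 and 142 CPM (ratio 0.865). Hsp90b1 (Grp94), its Hsp90 partner, was at 240 and 219 CPM, a ratio of 0.915 (0.903 to 0.928). Hspa5 was below 1 in 6 of 7 labels and Hsp90b1 in all 7. The disulfide isomerase Pdia6 (103 and 89.4 CPM) and Creld2 (19.0 and 16.3 CPM) lay at ratios of 0.867 and 0.858. Calr (calreticulin), Hyou1 and Pdia3 lay closer to 1, at ratios of 0.925, 0.924 and 0.949.

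Canx (calnexin), the membrane-bound lectin chaperone, went the other way at 97.0 and 107 CPM, a ratio of 1.11 (1.08 to 1.13). P4hb, a disulfide isomerase that also serves collagen hydroxylation, was at 128 and 135 CPM, a ratio of 1.05 (1.03 to 1.07). Canx and Calr bind the same sugar-tagged proteins in the ER, as membrane-bound and soluble partners, and over all cells their ratios lay on opposite sides of 1. By label each was below 1 in 3 of 7. Sdf2l1, Dnajb9 and Dnajc3 were at ratios of 1.06, 1.01 and 1.01, and each of these 3 turned direction under at least 1 alternative. The other 12 chaperones, 10 below 1 and 2 above 1, kept their direction in all 8 alternative settings tried for single genes. The ERSE was held by genes on both sides: Hspa5, Hsp90b1, Creld2, Calr and Pdia6 were below 1, Canx was above 1 and Dnajc3 was at 1.01. Summed, the 15 chaperones took 1497 CPM of the control and 1394 CPM of the diabetic library, a ratio of 0.931 (0.926 to 0.936), a sum in which abundant genes weigh most.

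In ER-associated degradation, Herpud1, which helps assemble the export machinery, was at 41.3 and 45.7 CPM, a ratio of 1.11 (1.07 to 1.14). Edem1, a lectin that picks out misfolded glycoproteins, was at 17.6 and 15.3 CPM, a ratio of 0.870 (0.827 to 0.916). The ubiquitin ligase Syvn1 and its partner Sel1l were at ratios of 1.05 and 0.959. The 4 genes together took 102 and 104 CPM. Of the genes of protein entry, the translocon subunit Sec61b was at 327 and 289 CPM (ratio 0.886, 0.876 to 0.897), and Ssr1 at 51.7 and 54.96 CPM (ratio 1.06).

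In the Atf4 branch, Asns, the asparagine synthetase, was at 6.76 CPM in the control and 5.08 CPM in the diabetic library, a ratio of 0.752 (0.689 to 0.820). Chac1, which breaks down glutathione, was at 61.5 and 50.5 CPM, a ratio of 0.820 (0.798 to 0.843). The transcription factor Ddit3 (CHOP) was at 7.13 and 6.08 CPM, a ratio of 0.852 (0.786 to 0.924). Ddit3 has overlapping gene entries in the annotation, so its reads may be shared with the other entry. Atf4 itself was at 51.0 and 48.8 CPM and Ppp1r15a (GADD34), which restores translation, at 37.4 and 35.1 CPM. Sesn2, a stress-induced regulator of growth signalling, was at 3.70 and 4.01 CPM. Trib3, an inhibitor of Atf4 activity, had 26 counts in the control and 42 in the diabetic library, a ratio of 1.86 (1.11 to 3.15), and its CPM intervals overlapped. Left without the Squam cells, Asns was at 6.37 and 5.63 CPM, a ratio of 0.884, which is short of the rule. Ppp1r15a was then at 12.3 and 16.6 CPM, a ratio of 1.35, and was called higher. The call of Asns over all cells thus rested on the Squam cells.

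Several of the 32 genes differed widely in level between labels. The labels come from clustering the same cells, so the levels by label are a description. The same label was highest in both libraries for 24 of the 32 genes. Of these, 7 were highest in Squam (Hspa5, Calr, Manf, Dnajb9, Atf6, Chac1 and Ppp1r15a). Of all 32, 7 were lowest in Squam in both libraries (Canx, Dnajc3, Pdia4, Pdia6, Sec61b, Ssr1 and Sesn2). The chaperones thus split between Squam and Basal: 7 were higher in Squam in both libraries and 8 lower. All 4 degradation genes were higher in Squam than in Basal and both protein entry genes were lower.

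Hspa5 was at 266 CPM in Squam against 122 CPM in Basal in the control library, and at 238 against 106 CPM in the diabetic library. Hsp90b1 was highest in TAC2, at 401 and 372 CPM, and lowest in Conj, at 186 and 171 CPM. The 6 cycling markers, Mki67 and Top2a among them, were also highest in TAC2, at 1674 and 1808 CPM. Canx was highest in LSC (175 and 163 CPM) and lowest in Squam (47.7 and 45.5 CPM). Calr, the soluble partner of Canx, was highest in Squam (258 and 249 CPM), the label where Canx was lowest. Herpud1 was highest in LSC (96.4 and 106 CPM) and Ern1 too (10.6 and 9.56 CPM), while Atf6 was highest in Squam (25.6 and 25.8 CPM).

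Chac1 was almost a Squam gene: 95.0% of its UMIs in the control library and 94.6% in the diabetic library were in cells of that label. Its level in Squam was 294 CPM in the control and 267 CPM in the diabetic library, against 1.01 and 0.444 CPM in Basal. Conj came next at 24.3 and 33.7 CPM. Chac1 in Basal was 0.344% of its Squam level in the control library and 0.166% in the diabetic one, where the Squam markers Psca (0.276% and 0.0951%) and Cldn23 (0.569% and 0.105%) stood at like shares. The few counts of Chac1 in Basal, 32 and 15, are therefore not read as expression. Ppp1r15a was also highest in Squam, at 139 and 120 CPM, with 73.6% and 61.1% of its UMIs there. Its level in Basal, 14.4 and 21.7 CPM, was 10.4% and 18.1% of that in Squam, far above the shares of Psca and Cldn23. The Atf4 mRNA did not share this pattern, at 44.2 and 45.9 CPM in Squam beside 44.7 and 44.6 CPM in Basal. Trib3 had 2 and 4 counts in Squam.

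**Figure D2:**
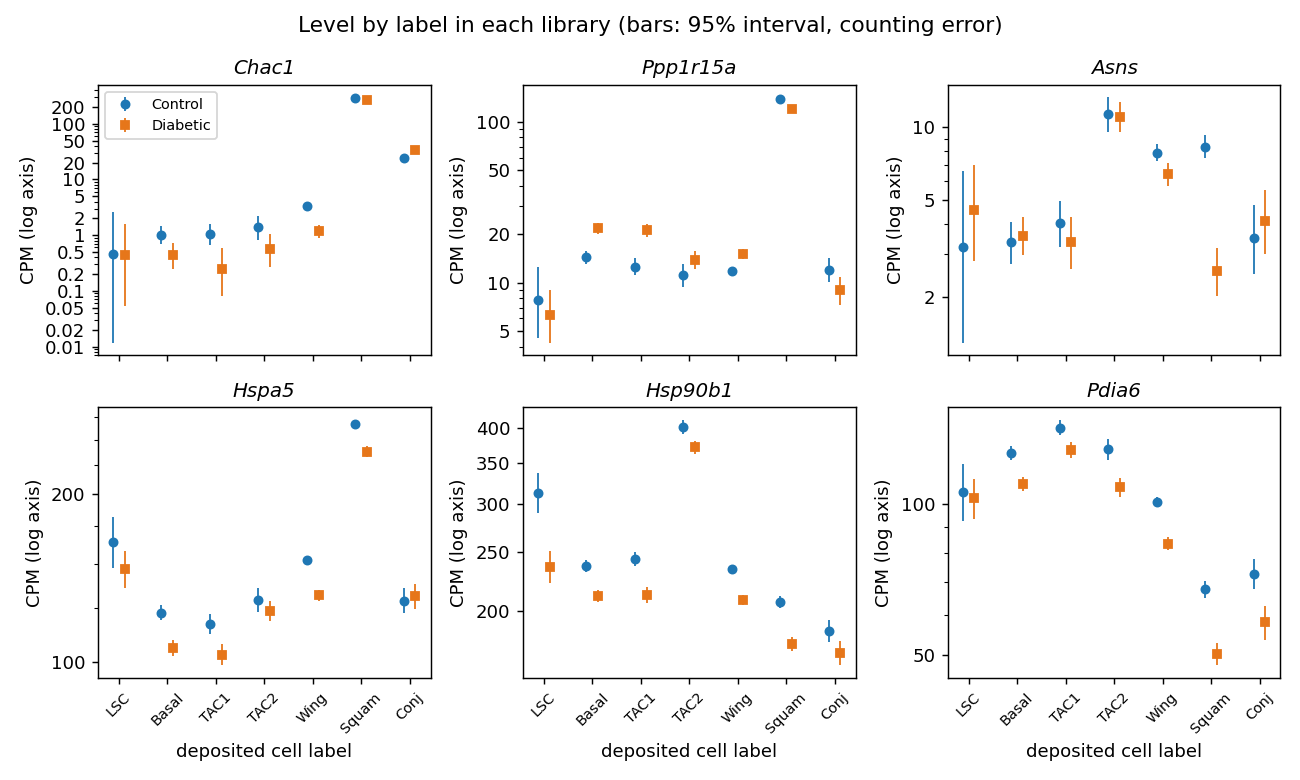
The level in CPM (log y axis) of 6 genes is plotted by deposited label (x axis) in the control (circles) and diabetic (squares) library, with 95% intervals for counting error. Chac1 and Ppp1r15a stand far above the other labels in Squam in both libraries, Hsp90b1 is highest in TAC2, and the Asns intervals of the libraries lie apart in Squam (8.33 and 2.55 CPM).

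Within Squam, Chac1 was carried by part of the cells. After every cell was thinned to 5000 UMIs, 41.7% of 1541 control cells (39.2% to 44.2%, exact Clopper-Pearson) and 36.2% of 1308 diabetic cells (33.6% to 38.8%) had a Chac1 UMI, and 0.550% and 0.0863% of Basal cells did. Before thinning, the median depth of a Squam cell was 22382 and 21047 UMIs, and that of a Basal cell 13146 and 14438.5. The cells were uneven: the 155 control and 131 diabetic Squam cells with the most Chac1 held 57.4% and 63.3% of its UMIs. The highest count in a cell was 29 in both libraries.

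Squam cells with and without a Chac1 UMI differed in some other genes too. Ppp1r15a was seen in 60.4% of control cells with Chac1 (56.5% to 64.2%) and 24.7% of those without (21.9% to 27.6%), and in 52.6% and 22.5% in the diabetic library. Hspa5 averaged 1.90 UMIs with Chac1 and 1.04 without in the control library, and 1.71 and 1.02 in the diabetic one. Its share of cells differed less, 63.2% and 59.0% in the control and 59.4% and 54.7% in the diabetic library. The intervals of those shares overlapped and each median was 1 UMI. Asns went the other way, seen in 0.935% of control cells with Chac1 and 6.01% of those without, and in 0.211% and 2.04% in the diabetic library. So did Atf4, at 14.2% and 23.7% in the control and 16.1% and 21.3% in the diabetic library. The diabetic Atf4 intervals overlapped (12.9% to 19.7% and 18.6% to 24.3%). Ddit3 was at 4.98% and 3.56%, and at 2.96% and 3.35%, with intervals that overlapped. The 15 chaperones together averaged 7.18 UMIs with Chac1 and 7.80 without in the control library, and 7.11 and 6.68 in the diabetic one. Ppp1r15a was thus seen in more of the Chac1 cells of both libraries, and the mean of Hspa5 was higher in them. The chaperone sum was lower in the Chac1 cells in the control and higher in the diabetic library.

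The same cells also carried more Psca (184 against 123 UMIs per control cell, 247 against 180 in the diabetic library), more of the immediate early gene Dusp1 (3.99 against 0.931, and 2.16 against 0.733) and less Krt5 (9.62 against 26.1, and 7.95 against 22.8). Their depth before thinning was alike, with medians of 21643 and 23342 UMIs in the control library and 21177 and 21414 in the diabetic one. The part of Psca, Krt5 and Dusp1 in these differences was not tested, and the cells with and without a Chac1 UMI are ranges of 1 label and not types.

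Set side by side by label, the chaperone median was below the control level in each label, and the Atf4 branch median was not. The chaperone median log2 ratio was below 0 in 7 of 7 epithelial labels, from -0.19 in Wing to -0.03 in Conj, and below the median of all genes in each of them. The Atf4 branch median was below 0 in 3 of 7 labels (TAC2, Wing and Squam) and below that of all genes in 4. It was -0.17 in Squam and 0.19 in Conj, with 6 of the 7 genes measured in each. In LSC it was 0.28 from 2 genes. In Basal and TAC1 the Atf4 branch median was close to the control level, at 0.045 and 0.005. Leaving out likely doublets moved the count of labels below 0 from 3 to 5, and chaperones stayed at 7. The Atf4 branch median also turned below 0 in TAC1 under median-of-ratios scaling and under the mitochondrial limit. In LSC it was -0.21 in thinned cells, so the count of 3 depends on the setting. Summed, the chaperones went from 1509 to 1343 CPM in Squam, 1555 to 1427 CPM in Wing and 1687 to 1508 CPM in LSC, and in TAC1 from 1458 to 1376 CPM. The sums differed less in Basal (ratio 0.965), TAC2 (0.974) and Conj (1367 and 1347 CPM, ratio 0.986), and in Conj the intervals overlapped. As a mean share of a thinned cell's UMIs, the chaperones in Conj were at 0.137% and 0.140%, the other way. The Atf4 branch sums had ratios of 1.09 (1.03 to 1.15) in Basal, 1.14 (1.06 to 1.23) in TAC1 and 1.13 in Conj. In Wing (0.935) and Squam (0.892) the Atf4 branch sums were below the control, and in LSC (1.08) and TAC2 (0.978) their intervals overlapped. The labels share their library, so 7 labels are not 7 independent observations.

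**Figure D3:**
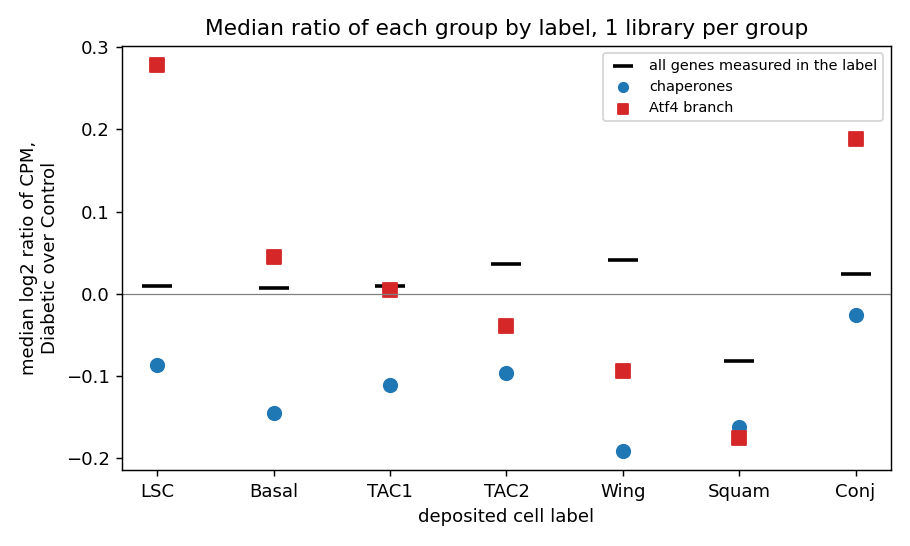
The median log2 ratio of CPM, diabetic over control (y axis), is plotted for the chaperones (circles), the Atf4 branch (squares) and all genes measured (dashes) in each deposited label (x axis). The circles lie below 0 and below the dash in each of the 7 labels, and the squares lie on both sides.

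Few single members passed the size rule within a label. In LSC, where 4.65% of genes were lower and 3.99% higher, Hsp90b1 was lower (313 and 237 CPM, ratio 0.757, 0.687 to 0.834) and so was Pdia4 (76.7 and 54.1 CPM, ratio 0.705, 0.578 to 0.864), out of 27 members measured. In TAC1, where 4.05% were lower and 4.51% higher, Dnajb11 was lower (40.5 and 31.7 CPM, ratio 0.782, 0.704 to 0.867). Each of these 3 calls was lost under 1 of 6 alternatives. In Basal (5.67% lower, 6.56% higher), 0 members were lower and Herpud1 (26.5 and 33.8 CPM, ratio 1.27, 1.16 to 1.39) and Ppp1r15a (ratio 1.51, 1.34 to 1.70) were higher. In TAC2 (3.32% lower, 5.63% higher), Herpud1 (28.8 and 41.0 CPM, ratio 1.42, 1.254 to 1.62) was higher and the PERK gene Eif2ak3 was too (5.67 and 8.76 CPM, ratio 1.55, 1.16 to 2.07, from 73 and 155 counts). In Conj (4.98% lower, 6.37% higher), Ssr1 (43.0 and 54.8 CPM, ratio 1.27, 1.13 to 1.44) and Chac1 (24.3 and 33.7 CPM, ratio 1.39, 1.18 to 1.63) were higher. The calls of Ssr1 and Chac1 in Conj and of Eif2ak3 in TAC2 were each lost under 2 of 6 alternatives, and those of Herpud1 in thinned cells alone. Under median-of-ratios scaling the higher and lower calls over all genes went from 611 and 360 to 476 and 497 in TAC2, and from 1265 and 776 to 1009 and 987 in Wing.

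Ppp1r15a was the member that was higher in the most labels. It was at 14.4 and 21.7 CPM in Basal, 12.6 and 21.1 CPM in TAC1 (ratio 1.68, 1.44 to 1.97) and 11.8 and 15.001 CPM in Wing (ratio 1.27, 1.15 to 1.398), and was called higher in all 3. The TAC1 call held in all 6 alternatives, the Basal call in 5 and the Wing call in 4. In Squam, its site of highest level, it was at 139 and 120 CPM and in Conj at 12.0 and 8.96 CPM, below 1 in both and not called. The immediate early genes, which tissue dissociation can raise (Fos, Fosb, Jun, Junb, Egr1, Ier2, Atf3 and Dusp1), moved with it: their sum went from 1305 to 1633 CPM in Basal, with 5 of 8 called higher, and from 1048 to 1612 CPM in TAC1, with 6 of 8. In Wing it went from 963 to 1053 CPM and in TAC2, where Ppp1r15a (11.1 and 13.9 CPM) was not called, from 1080 to 1327 CPM, with 5 of 8 higher in each. In Squam the sum was 1523 and 1411 CPM and in Conj 727 and 641 CPM. Their part in the Ppp1r15a values was not tested. Sesn2 was also higher in TAC1, at 1.45 and 3.42 CPM, from 30 and 69 counts, a ratio of 2.35 (1.51 to 3.74).

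**Figure D4:**
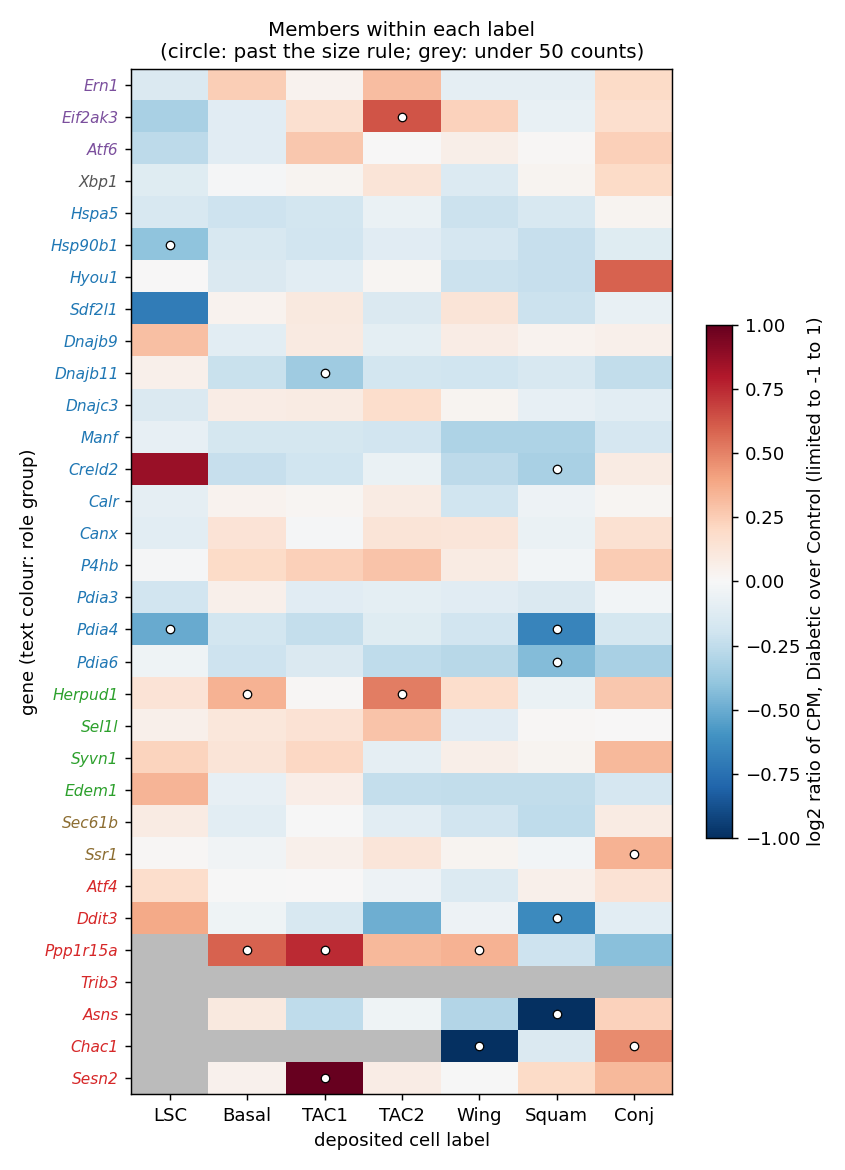
Each cell of the grid is the log2 ratio of CPM, diabetic over control, of 1 gene (y axis, names coloured by role) in 1 deposited label (x axis), with colours limited to -1 to 1. Circles mark genes past the size rule and grey marks genes under 50 counts. Hsp90b1, Manf, Pdia4 and Pdia6 are below 0 in all 7 labels, Herpud1 is above 0 in 6, and Ppp1r15a is above 0 in Wing and below 0 in Squam.

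In Wing (6.42% of genes lower, 10.5% higher), Chac1 was lower at 3.31 and 1.17 CPM, from 261 and 62 counts, a ratio of 0.353 (0.263 to 0.468). Chac1 in Wing was 1.13% of its Squam level in the control library and 0.438% in the diabetic one, and Psca was at 8.05% and 6.64%. The part of free RNA and of cells between the labels in the Chac1 counts of Wing was not tested.

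In Squam, 5 of 31 measured members were lower and 0 higher, a share close to that of all genes there. Of all genes measured in Squam, 15.3% were lower and 5.01% higher, and the split of 517 higher and 1582 lower became 858 and 1126 under median-of-ratios scaling. Pdia4 was at 36.5 and 23.1 CPM, a ratio of 0.632 (0.577 to 0.692), and Pdia6 at 67.6 and 50.2 CPM, a ratio of 0.742 (0.696 to 0.790). Both disulfide isomerases kept the call in all 6 alternatives tried by label. Equal weight for every cell changed the ratio only and kept the CPM intervals of the main sums. One of the 6, the mitochondrial limit of 10%, left out no Squam cell, since the highest shares there were 5.19% and 6.39%. Creld2 was at 16.4 and 13.1 CPM, a log2 ratio of -0.32 (interval of the ratio 0.704 to 0.908). It kept the call in 1 of 6, that same mitochondrial limit, and lost it in each alternative that changed the Squam values.

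The Atf4 branch was uneven in Squam. Asns was at 8.33 CPM in the control and 2.55 CPM in the diabetic library, from 325 and 78 counts, a ratio of 0.306 (0.236 to 0.393). Ddit3 was at 10.2 and 6.60 CPM, a ratio of 0.644 (0.541 to 0.765). Both were called lower, Asns in all 6 alternatives and Ddit3 in all but the thinned cells, with the mitochondrial limit again leaving out no cell. Atf4 (44.2 and 45.9 CPM) and Chac1 (294 and 267 CPM) were not called. Thinned to 5000 UMIs, 3.89% of control Squam cells (2.98% to 4.98%) and 1.38% of diabetic ones (0.818% to 2.17%) had an Asns UMI. In the other labels Asns was not called: it was at 7.88 and 6.42 CPM in Wing and at 11.3 and 11.03 CPM in TAC2, where it was highest in both libraries.

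Other Atf4 targets were listed for the pathway, with 26 in the matrix. Of the 21 measured in Squam, 9 were lower and 1 higher (Nupr1), with 17 below 1 and a median log2 ratio of -0.64. That is 42.9% lower beside the 15.3% of all genes. All 9 were also past 1.5-fold, as were 799 of all 10313 genes measured in Squam. Among the 9 were the metabolic enzymes Phgdh, Psph, Shmt2 and Mthfd2. Phgdh, which starts serine synthesis, was at 19.1 and 9.12 CPM (ratio 0.477, 0.414 to 0.548), Psph at 3.87 and 2.49 CPM, and Shmt2 and Mthfd2 each at 2.36 and 1.28 CPM. The others were the amino acid transporters Slc7a1 (7.66 and 4.32 CPM) and Slc7a5 (1.44 and 0.654 CPM), the transcription factor Cebpb (28.0 and 16.1 CPM), Cth and Vldlr. These genes were named after their values were seen. Psat1, which acts between Phgdh and Psph, was at 8.43 and 6.90 CPM in Squam and not called there, and over all cells it was higher, at 30.04 and 42.96 CPM. Of 12 aminoacyl-tRNA synthetase genes, several of which Atf4 also drives, 4 were lower in Squam and 0 higher, with a median of -0.32. Not all targets were lower: Slc38a2, an amino acid transporter, was at 39.0 and 46.2 CPM and Cebpg at 28.7 and 33.2 CPM.

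**Figure D5:**
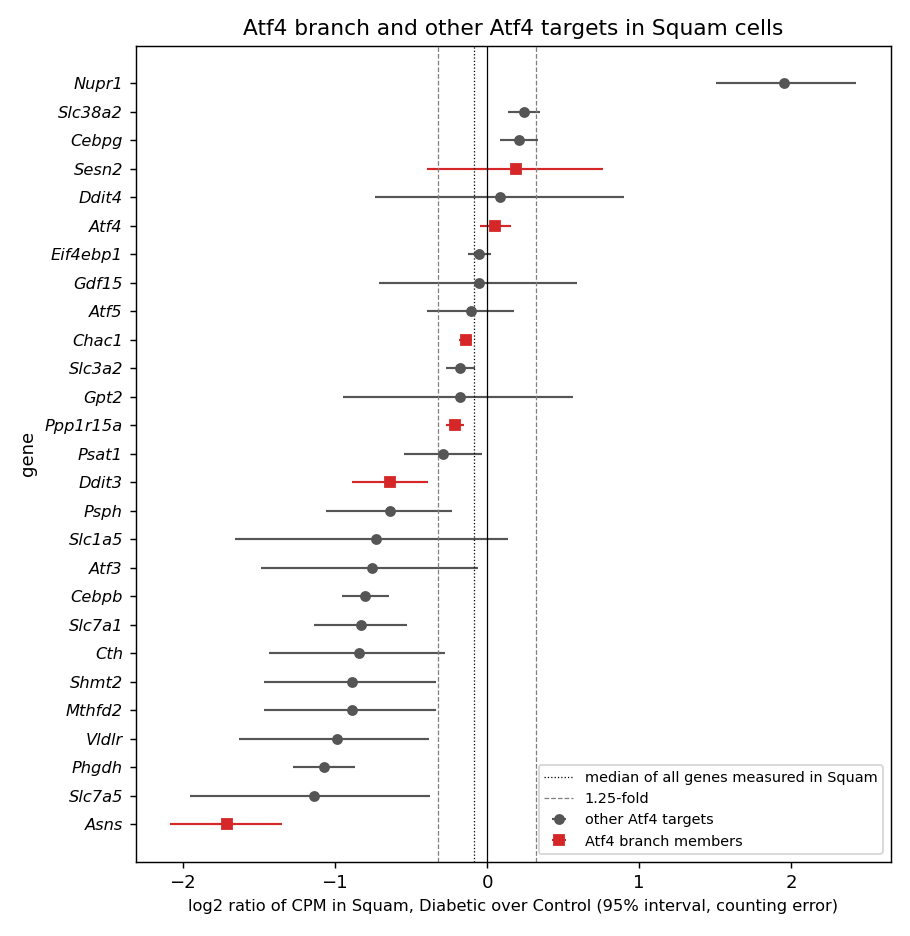
The log2 ratio of CPM in Squam cells, diabetic over control (x axis, bars are 95% intervals for counting error), is plotted for the Atf4 branch members (squares) and the other Atf4 targets (circles) with 50 or more counts (y axis). Asns lies lowest, Slc7a5 (-1.13) and Phgdh (-1.07) come next, and Nupr1 lies alone on the far right (1.95).

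Several measures moved with the Squam values. Psca in Squam was at 28930 CPM in the control and 40529 CPM in the diabetic library. Krt5 was at 4073 and 3518 CPM and made up most of the sum of 5 basal markers, 4235 and 3644 CPM. Of the other basal markers, Itgb4 (9.15 and 5.49 CPM) and Col17a1 (102 and 77.2 CPM) differed more than Krt5. Krt14 (33.0 and 27.6 CPM) and Trp63 (18.2 and 15.4 CPM) had ratios of 0.837 and 0.845, near the 0.864 of Krt5. By the size rule 2 of 5 basal and 3 of 5 wing markers were lower and 0 higher, beside 15.3% of all genes lower. Within Squam cells without a Chac1 UMI, the share with an Asns UMI was 6.01% and 2.04%. These held 54 of the 60 control and 17 of the 18 diabetic Squam cells with an Asns UMI. The 2 shares therefore add little to those over all Squam cells. Goblet markers were seen in 62 of 1587 control and 11 of 1347 diabetic Squam cells; without those cells the log2 ratio of Asns was -1.73 in place of -1.71, and 9 targets were lower. Without likely doublets 5 of 18 targets were lower, beside 12.8% of all genes, and with thinned cells 2 of 9, beside 7.49%. The part of the mix of Squam cells in these values was not tested.

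Outside Squam the Atf4 targets were called in both directions, with label medians above 0. Their median log2 ratio was 0.22 in LSC, 0.10 in Basal, 0.0045 in TAC1, 0.17 in TAC2, 0.15 in Wing and 0.08 in Conj. In Wing 9 of 24 measured were higher and 1 lower, beside 10.5% of all genes higher and 6.42% lower. Slc7a5 and Cth, lower in Squam, were higher in Wing. Over all cells, Squam included, 7 of 26 targets were higher and 1 lower, with a median of 0.21. Of all genes 13.3% were higher and 6.45% lower. Nupr1, a stress-induced chromatin protein, was at 2.71 and 8.09 CPM (ratio 2.99, 2.70 to 3.31) and was called higher in LSC, Basal, TAC2, Wing, Squam and Conj. Atf3, which is also among the immediate early genes, was at 0.963 and 2.77 CPM (ratio 2.87, 2.42 to 3.42). Vldlr, a lipoprotein receptor, was at 9.80 and 4.92 CPM (ratio 0.502, 0.463 to 0.545) and was called lower in all 7 epithelial labels. Phgdh was lower in Basal (250 and 178 CPM) and TAC1 (265 and 207 CPM) as well as in Squam and Conj.

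The rest of the ER machinery mostly stayed within the size rule over all cells. Of 25 other folding genes 3 were higher and 0 lower, with a median log2 ratio of 0.04, where 13.3% of all genes were higher and 6.45% lower. The prolyl isomerase Fkbp14 (1.47 and 2.36 CPM) and the glycoprotein folding sensor Uggt2 (1.37 and 2.01 CPM) had the highest ratios of the 3 called. Of 18 other degradation genes, Derl1, a channel component, was lower at 58.1 and 43.5 CPM (ratio 0.748, 0.726 to 0.770) and the lectin Erlec1 was higher at 21.1 and 26.7 CPM. Of 24 other genes of translocation, signal peptide cleavage and glycosylation, 1 was lower, the signal peptidase subunit Sec11c at 68.4 and 53.5 CPM. Of 14 other signalling genes, 1 was lower, Bak1 at 26.8 and 20.9 CPM. In Squam, 4 of 21 other folding genes were lower and 0 higher, beside 15.3% and 5.01% of all genes. None of these counts is read as particular to the ER lists.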

How the data were processed

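Single-cell 3′ RNA libraries (Chromium Next GEM v3.1) of 1 control and 1 diabetic pool were deposited by the authors as 1 matrix of raw UMI counts with a metadata file giving each cell's library and label. The submitters' processing notes name Cell Ranger 5.0.0, Seurat 4 and the genome build mm10, without their roles. How cells were filtered and clusters named is not given in the sources used here. From these counts, sums over the cells of each library and label were scaled to CPM, with exact 95% Poisson intervals for levels, exact conditional binomial intervals for ratios and Clopper-Pearson intervals for shares of cells. With 1 library per group there was no test, and intervals cover counting error only.

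Cells were thinned to 5000 UMIs for shares, leaving out 486 control and 264 diabetic cells. Scrublet marked 0 cells by its automatic threshold, so all cells were kept, and 791 control and 683 diabetic cells with the top 8% of scores were left out as an alternative. Other alternatives were median-of-ratios scaling, totals without genes over 0.5% of a library (27 genes), equal weight for each cell, equal label weights, a mitochondrial limit of 10%, other count minimums and folds, and leaving out labels. Equal weight for cells or labels changed the ratios only, so calls under it used the CPM intervals of the main sums. The sums and calls were tested on simulated data. Members given with intervals were at least those called over all cells or in an epithelial label and, in each role group, the 2 farthest from 1 over all cells. Of each pathway list at most 2 called genes per direction were named by rule. The members and lists were chosen with earlier results of these data known. Levels of different genes are not compared, since 3′ counts are not per length. Promoters of Atf6, Hyou1 and Manf were not in the RefSeq table used. The work used scanpy 1.11.5 and scipy 1.17.1 under Python 3.11.15, with matplotlib 3.10.9, pandas 2.3.3 and numpy 2.4.6.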

Additional observations from a re-analysis of the deposited data

Results flagged for a closer look

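Chac1 moved in opposite directions in the labels Wing and Conj. Its log2 ratio, diabetic over control, was -1.50 in Wing, from 261 and 62 counts, and 0.47 in Conj, from 270 and 376 counts. The difference between the labels was not tested, since each group is 1 library. The Wing call held in all 6 alternatives tried by label, and the Conj call was lost with equal weight for every cell and with thinned cells. In Squam, which held 95.0% and 94.6% of the Chac1 UMIs, the log2 ratio was -0.14.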

How the results depend on the processing

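No paired analysis was possible because each group is 1 library. Of the 32 members, 24 kept their sign over all cells in all 8 alternatives tried for single genes. The chaperone median stayed below 0 in 7 of 7 labels in each of the 8 alternatives run by label. Not all 8 could change it: a minimum of 10 counts kept the same 15 chaperones, and the mitochondrial limit left out no Squam or Conj cell. In thinned cells the chaperone median was closer to the control level, at -0.0033 in Conj, -0.021 in LSC and -0.039 in Basal. Median-of-ratios scaling moved the median log2 ratio of the members to -0.15 and that of the chaperones to -0.18. Under it 4 of 32 members were lower, beside 1216 of all 13846 genes. Equal weight for every cell gave a chaperone median of -0.17 with 0 members lower, and thinned cells gave -0.079 with 0 lower. With the same label weights the member median was -0.033 and Ppp1r15a turned to 0.05. A fold of 1.1 called 12 members lower and 2 higher, and a fold of 1.5 called 0 lower, beside 2.8% of all genes. The share of all genes past 1.1-fold was not counted, so the counts at that fold are not read as a result about the members. Without likely doublets the Atf4 branch median was below 0 in 5 labels in place of 3. Alternatives chosen after seeing the data were those on Squam. Leaving out its cells gave 0 members lower and 1 higher. The share of all genes called without Squam cells was not counted, so these counts are not read as a result about the members. The 9 other Atf4 targets lower in Squam became 2 in thinned cells (9 measured), 5 without likely doublets (18 measured) and 4 at a minimum of 200 counts (11 measured). In these 3, fewer genes were measured. The cause of the other shifts was not tested. Depth limits Trib3, Chac1 outside Squam, Wing and Conj, and the 5 members not measured in LSC.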
